A study of Homo sapiens with 24 samples.

Results

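Transfer RNA (tRNA) was sequenced in HEK293T cells, a human embryonic kidney line, from 2 knockout clones of DUS1L and from wild-type cells. The data are 9 of the 24 libraries of the series, namely 3 of clone DUS1L KO 1-9, 3 of clone DUS1L KO 2-4 and 3 of wild-type HEK293T. The members are the rows of the authors' deposited DUS1L tables that name a human tRNA, 283 of 286 rows in the isodecoder table and 71 of 74 in the anticodon table, and the other 3 rows in each were E. coli tRNAs added as spike-ins. The other libraries came from clones lacking DUS2L or DUS3L and from a second wild-type set, which makes 8 groups of 3 in all. Cells of every group were grown in DMEM with 10% FBS at 37°C and 5% CO2 and collected at 80% confluency without drug. Each knockout line is 1 clone of unstated allele, and nothing says that the 3 libraries of a group came from separate cultures, so p-values measure only the spread between these libraries. The file headers speak of clone #1 and clone #2 and do not say which labelled clone is which, so those numbers are used here. Libraries of isolated tRNA do not measure the DUS1L message, and loss of the enzyme was not checked here.

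Transfer RNAs carry amino acids to the ribosome and read codons through their anticodon. Isodecoders are tRNAs of one anticodon that differ elsewhere in sequence, and an anticodon family is their sum. Dihydrouridine synthases reduce uridine to dihydrouridine, a base that does not stack and that loosens the tRNA backbone. DUS1L acts on uridines early in the D loop, DUS2L on a later uridine of that loop and DUS3L on one of the variable loop. The sequencing counts tRNA-derived reads, and a lost modification could alter both the amount of a tRNA and how well it is copied into cDNA, which these data cannot tell apart.

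The nuclear sequences shown are those of tRNAs described below that could be read from RefSeq promoter windows (GRCh38.p14) or from GENCODE transcripts of GRCh38 that run through a tRNA gene. Of 261 nuclear entries, 28 had a readable sequence, 10.7%. Most tRNAs named below, among them tRNA-Asn-GTT-12-1, tRNA-Asn-GTT-24-1, tRNA-Leu-CAA-4-1 and tRNA-SeC-TCA-1-1, are not among the 28 and are given by name only. Since the share is low, a list by D-loop sequence was void under the rule of 80% and none was compared. Capitals mark the stretch from base 16 up to the first GG of the D loop, where DUS1L acts, counting from the gene's first base. In tRNA-Asn-GTT-6-1 a run of G follows base 16, so its mark stops 1 base short of that in tRNA-Asn-GTT-4-1.
tRNA-Asn-GTT-6-1: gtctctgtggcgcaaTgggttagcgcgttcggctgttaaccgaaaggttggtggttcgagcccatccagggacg
tRNA-Asn-GTT-4-1: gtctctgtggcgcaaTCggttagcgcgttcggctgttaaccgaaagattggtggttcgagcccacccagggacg
tRNA-Glu-TTC-3-1: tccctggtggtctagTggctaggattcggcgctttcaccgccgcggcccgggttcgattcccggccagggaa
tRNA-Glu-TTC-4-1: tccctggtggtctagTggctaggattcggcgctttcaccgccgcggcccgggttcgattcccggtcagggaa
tRNA-Arg-TCT-2-1: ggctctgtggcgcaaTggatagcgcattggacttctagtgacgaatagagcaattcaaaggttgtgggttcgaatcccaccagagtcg
tRNA-Met-CAT-6-1: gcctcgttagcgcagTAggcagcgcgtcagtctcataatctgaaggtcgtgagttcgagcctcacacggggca

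The asparagine gene TRN-GTT6-1 lies at chr1:143735920-143735993 on the minus strand, outside GENCODE genes, and TRN-GTT4-1 at chr1:16889677-16889750 on the plus strand in an intron of CROCC. From tRNA-Asn-GTT-4-1 to tRNA-Asn-GTT-6-1 the changes were C17G, A47G and C65T, the first of them inside the D loop. The glutamate gene TRE-TTC3-1 lies at chr1:16872583-16872654 on the plus strand, and TRE-TTC4-1 at chr1:16535279-16535350 on the minus strand. From tRNA-Glu-TTC-4-1 to tRNA-Glu-TTC-3-1 the only change was T65C. The arginine gene TRR-TCT2-1, which holds an intron after the anticodon, lies at chr17:8120925-8121012 on the plus strand, in an exon of HES7 by GENCODE. The elongator methionine gene TRM-CAT6-1 lies at chr16:87384022-87384094 on the minus strand, in an exon of MAP1LC3B. For the mitochondrial tRNA that differed most between the clones and for the mitochondrial tRNA with the largest counts, capitals mark the anticodon instead.
mt-Met-CAT: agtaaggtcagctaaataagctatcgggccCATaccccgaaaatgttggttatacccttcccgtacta
mt-Glu-TTC: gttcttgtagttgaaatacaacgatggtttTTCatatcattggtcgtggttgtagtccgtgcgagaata

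The authors' deposited tables gave the mean of normalised counts over the libraries of a table, and for each clone a log2 fold change over wild type with its unadjusted p-value. They hold no values per library, and the depth behind each value is unknown. A level per group, in normalised counts, was solved here from the mean and both fold changes, and is called the recovered level. The standard error (SE) was solved from the fold change and its p-value, and had a median of 0.54 on the log2 scale in each clone over families with an authors' mean of at least 100. The whole column of p-values was adjusted after Benjamini-Hochberg, and a row passed below 0.05. The 3 spike-in rows stayed in each column, so totals and shares over all rows tested include them. The 3 spike-ins averaged 0.18 in clone #1 and -0.0046 in clone #2 as log2 fold changes of the authors' deposited table, and none of them passed in either clone. Singly they ran from -0.13 to 0.70 in clone #1 and from -0.41 to 0.39 in clone #2. The median nuclear isodecoder lay at 0.20 in clone #1 and -0.19 in clone #2. Both clones were set against the same wild-type libraries, so their fold changes share its error.

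Of 70 anticodon rows tested, which include the 3 spike-ins, 4 families rose in clone #1 (5.71%) and none fell. They were 2 leucine families, the selenocysteine tRNA and the asparagine family. No family passed in clone #2 (0% of 70), where 6 families were higher and 3 lower at an unadjusted p under 0.05 by the authors' DESeq2 fit, against 9 and 2 in clone #1. Leu-CAA, a leucine tRNA with a long variable arm, stood at 13361 normalised counts in clone #1 and 5952 in clone #2, against 3199 in wild type. Its log2 fold change in the authors' deposited table was 2.06 ± 0.44 in clone #1 (adjusted p = 0.00019) and 0.90 ± 0.44 in clone #2 (adjusted p = 0.324). SeC-TCA, which inserts selenocysteine at recoded UGA codons, had 5877 and 3508 normalised counts in clones #1 and #2, against 1518 in wild type. The authors' deposited table put it at 1.95 ± 0.46 in clone #1 (adjusted p = 0.000798) and 1.21 ± 0.46 in clone #2 (adjusted p = 0.188). Both families were above wild type in both clones, and both passed when the clones were averaged, a test chosen after the data were seen. The error of that average holds no term for differences between clones. That mean of both clones was 1.48 ± 0.38 for Leu-CAA and 1.58 ± 0.40 for SeC-TCA, and these were the families that passed, 2 of 69 rows (2.90%).

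Leu-CAG had 5247 normalised counts in clone #1 and 2475 in clone #2, against 1539 in wild type. Its log2 fold changes in the authors' deposited table were 1.77 ± 0.50 (adjusted p = 0.0069) and 0.68 ± 0.50 (adjusted p = 0.596). The asparagine family behaved otherwise. Asn-GTT stood at 64056 normalised counts in clone #1 and 18039 in clone #2, against 20985 in wild type, so that clone #2 lay just below wild type. In the authors' deposited table it was at 1.61 ± 0.45 in clone #1 (adjusted p = 0.0069) and -0.22 ± 0.45 in clone #2 (adjusted p = 0.955).

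**Figure D1:**
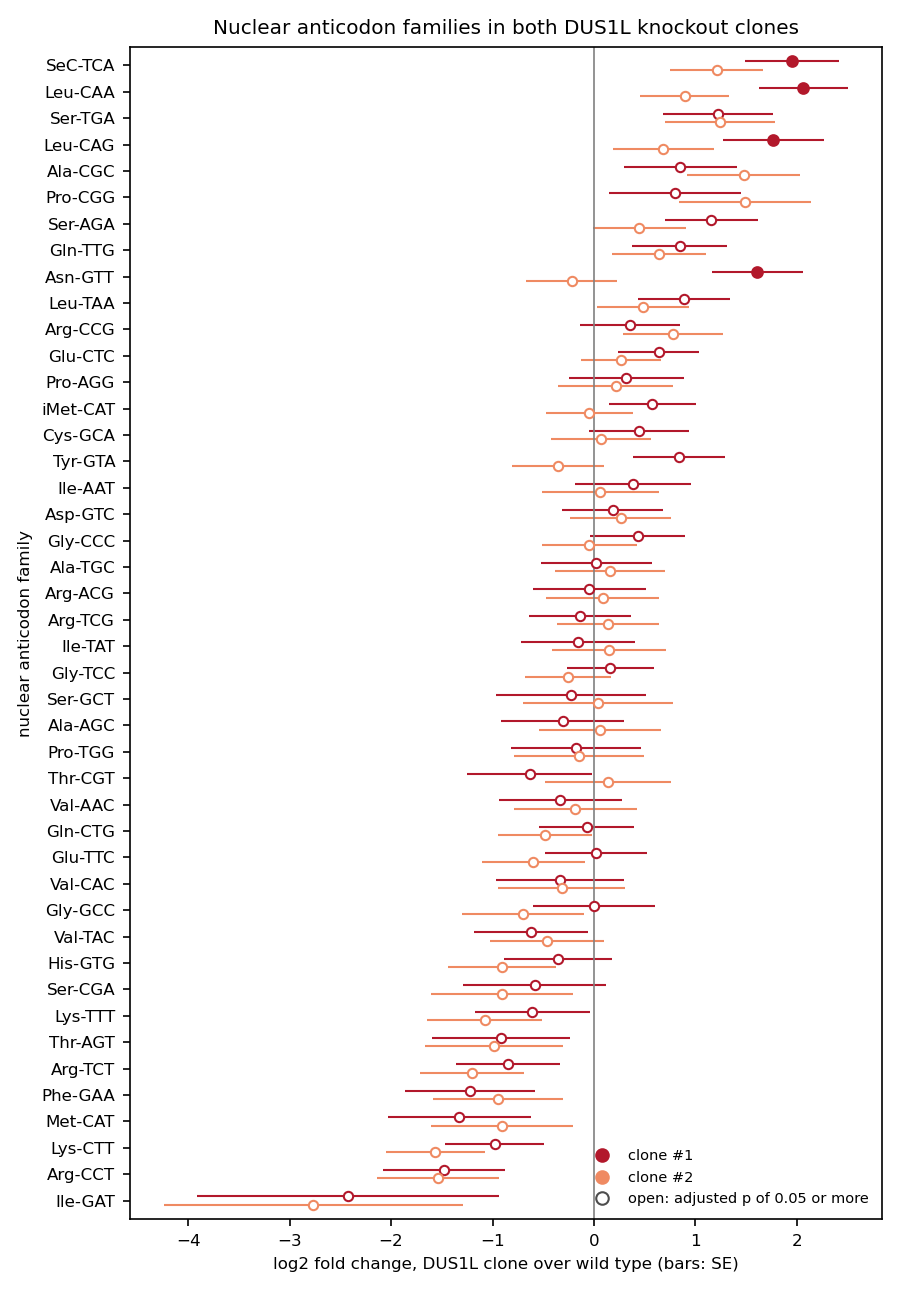
Log2 fold change over wild type of the nuclear anticodon families with a test and an authors' mean of at least 10, in DUS1L clone #1 (red) and clone #2 (orange), with SE bars; filled points passed the adjusted p of 0.05. The 4 filled points are all of clone #1 and lie between 1.61 and 2.06.

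Lys-CTT, Arg-CCT and Ile-GAT lay below wild type in both clones and passed in neither. Lys-CTT had 37169 and 24772 normalised counts in clones #1 and #2, against 73214 in wild type. It stood at -0.98 ± 0.49 in clone #1 (adjusted p = 0.312) and -1.56 ± 0.49 in clone #2 (adjusted p = 0.0926) in the authors' deposited table, the lowest p-value of clone #2. Arg-CCT was at -1.48 ± 0.60 and -1.53 ± 0.60 in clones #1 and #2 (adjusted p = 0.164 and 0.188) in the authors' deposited table. The lowest nuclear family in each clone was Ile-GAT, a rare isoleucine tRNA, at -2.42 ± 1.49 and -2.76 ± 1.47 in the authors' deposited table, with only 5.74 and 4.53 normalised counts against 30.8 in wild type. The highest family of clone #2 was Pro-CGG, with 5305 and 8544 normalised counts in clones #1 and #2, against 3051 in wild type. Its log2 fold changes in the authors' deposited table were 0.80 ± 0.65 and 1.49 ± 0.65 (adjusted p = 0.467 and 0.215).

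Tyr-GTA and the initiator iMet-CAT, which starts protein synthesis, passed in neither clone. Tyr-GTA had 781 and 343 normalised counts in clones #1 and #2, against 438 in wild type. The authors' deposited table gave it 0.83 ± 0.45 and -0.35 ± 0.45 (adjusted p = 0.325 and 0.828). For iMet-CAT the values in the authors' deposited table were 0.58 ± 0.43 and -0.05 ± 0.43 (adjusted p = 0.435 and 0.963), with 95% intervals of -0.27 to 1.42 and -0.89 to 0.80. The families Leu-AAG, Leu-TAG, Thr-TGT and Trp-CCA carried no p-value in either clone, and stood between -1.10 and -0.77 in the authors' deposited table.

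At the level of isodecoders, 57 of 275 tested rows passed in clone #1 (20.7%), 43 of them higher (15.6%) and 14 lower (5.09%). In clone #2, 23 of 275 passed (8.36%), 7 higher (2.55%) and 16 lower (5.82%). All of these rows were nuclear. After subtracting the median of nuclear isodecoders from each clone, 35 rows were higher and 16 lower in clone #1. The same step gave 19 higher rows and 13 lower ones in clone #2, so that the balance of directions there depends on the scaling. With both clones averaged, 33 isodecoders were higher and 21 lower of 269 rows (20.1%).

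Within the called leucine families and SeC-TCA, 6 isodecoders rose in clone #1 and none fell, where 15.6% of all rows rose and 5.09% fell. The tested rows were 6 of Leu-CAA, 1 of Leu-CAG and 2 of SeC-TCA. These families were picked for their rise in the same libraries, so the count adds no support to it. Of the 6 Leu-CAA isodecoders, 4 rose in clone #1 and none passed in clone #2. tRNA-Leu-CAA-4-1 (chr1:248873855-248873960) had 5937 and 2050 normalised counts in clones #1 and #2, against 1130 in wild type. The authors' deposited table put it at 2.39 ± 0.47 (adjusted p = 1.97e-05) and 0.86 ± 0.47 (adjusted p = 0.259). tRNA-Leu-CAA-2-1 (chr6:27605638-27605745) had 768.5 and 417 normalised counts, against 162 in wild type, and 2.25 ± 0.52 and 1.37 ± 0.52 in the authors' deposited table (adjusted p = 0.000292 and 0.0708). In Leu-CAG the isodecoder tRNA-Leu-CAG-2-2 made up 92.0% and 84.7% of the family in clones #1 and #2, against 73.0% in wild type. The other one, tRNA-Leu-CAG-1-1, had 419 and 379 normalised counts, against 415 in wild type, and carried no p-value. SeC-TCA was in effect 1 isodecoder, tRNA-SeC-TCA-1-1 (chr19:45478601-45478687, in an intron of ERCC1), which held at least 99.9% of the family in every group. Its adjusted p in clone #2 was 0.0696, and it passed there when rows with a mean under 100 were left out or after centring on the median nuclear isodecoder.

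Isodecoder entries of the asparagine family moved in opposite directions in clone #1. How reads that match several of these entries were assigned was not given in the sources used here, and its part was not tested. Of 16 Asn-GTT isodecoders, 5 rose and 3 fell in clone #1, while 2 fell and none rose in clone #2. Over all rows tested, 15.6% rose and 5.09% fell in clone #1, and 2.55% rose and 5.82% fell in clone #2. The family was called higher in clone #1 from the same libraries, so its 5 rises add no support to that call. tRNA-Asn-GTT-24-1 (chr1:146370101-146370174), which had the largest counts of the family, stood at 27711 normalised counts in clone #1 and 5058 in clone #2, against 5115 in wild type. In the authors' deposited table this was 2.44 ± 0.58 (adjusted p = 0.000401) and -0.02 ± 0.58 (adjusted p = 0.994). tRNA-Asn-GTT-6-1, whose sequence is shown above, had 6225 and 1363 normalised counts in clones #1 and #2, against 1424 in wild type. The authors' deposited table gave it 2.13 ± 0.53 (adjusted p = 0.000892) and -0.06 ± 0.53 (adjusted p = 0.983). The near-identical tRNA-Asn-GTT-4-1 had 57.4 and 67.8 normalised counts, against 78.0 in wild type, and passed in neither clone at -0.44 and -0.20 in the authors' deposited table.

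Of isodecoders whose mean reached 100, tRNA-Asn-GTT-12-1 fell the furthest in each clone. That mean includes the wild type, and this isodecoder reached 100 through its level there. It had 25.9 and 4.53 normalised counts in clones #1 and #2, against 1150 in wild type, so its value in clone #2 rests on very few counts. The fold changes in the authors' deposited table were -5.47 ± 0.72 (adjusted p = 1.03e-11) and -7.99 ± 0.78 (adjusted p = 3.16e-22). Its share of the family was 0.0404% and 0.0251% in the clones, against 5.48% in wild type. tRNA-Asn-GTT-10-1 (chr1:145129239-145129312) had 245 and 84.7 normalised counts in clones #1 and #2, against 699 in wild type. It stood at -1.51 ± 0.49 (adjusted p = 0.0143) and -3.04 ± 0.50 (adjusted p = 1.33e-07) in the authors' deposited table. Entry tRNA-Asn-GTT-9-2 carries, by its name, the mature sequence of tRNA-Asn-GTT-9-1, and how reads were split between the pair is uncertain. The 9-1 entry had 5129 and 1937 normalised counts in clones #1 and #2, against 2591 in wild type, and the 9-2 entry had 4237 and 1001, against 952.

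**Figure D2:**
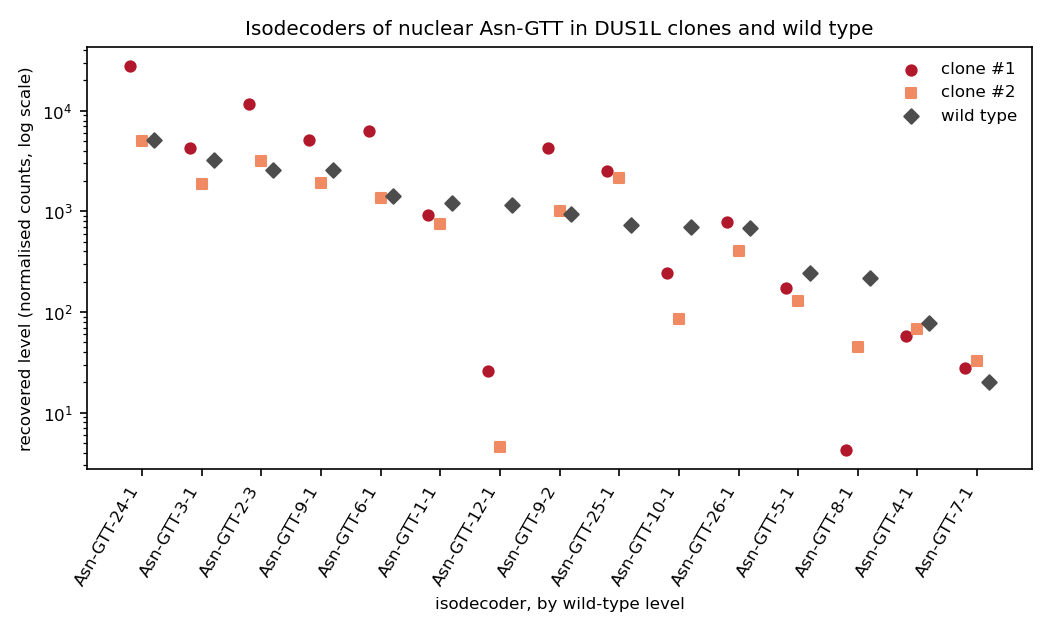
Recovered level in normalised counts (log scale) of nuclear Asn-GTT isodecoders whose mean reached 10, in clone #1 (circles), clone #2 (squares) and wild type (diamonds), in order of wild-type level. Asn-GTT-12-1 drops to 25.9 and 4.53 in the clones, against 1150 in wild type, while Asn-GTT-24-1 reaches 27711 in clone #1 alone; no values per library exist for error bars.

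The other isodecoders with the largest rises in clone #1, among those with a mean of at least 100, decoded phenylalanine, cysteine, isoleucine and lysine. That mean includes clone #1, and tRNA-Phe-GAA-3-1, lower in the other groups, reached 100 through its rise there. tRNA-Phe-GAA-3-1 (chr6:28807833-28807905) had 336 and 102 normalised counts in clones #1 and #2, against 48.8 in wild type, and 2.78 ± 0.56 and 1.07 ± 0.56 in the authors' deposited table (adjusted p = 2.14e-05 and 0.247). tRNA-Cys-GCA-17-1 (chr7:149691181-149691252) passed in both clones. Its normalised counts were 1675 and 786 in clones #1 and #2, against 282 in wild type, which the authors' deposited table gave as 2.57 ± 0.43 (adjusted p = 2.15e-07) and 1.48 ± 0.43 (adjusted p = 0.0109). The whole Cys-GCA family passed in neither clone, at 0.44 ± 0.49 and 0.07 ± 0.49 in the authors' deposited table. tRNA-Cys-GCA-21-1, tRNA-Ile-AAT-5-3 and tRNA-Lys-TTT-2-1 rose by 2.37, 2.27 and 2.26 in clone #1 in the authors' deposited table, with wild-type levels between 105 and 113 normalised counts.

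In clone #2 the 7 higher isodecoders all had a mean of at least 100. The largest rise was that of tRNA-Pro-CGG-1-1 (chr1:167714725-167714796), with 1903 and 3566 normalised counts in clones #1 and #2, against 870 in wild type. The authors' deposited table gave 1.13 ± 0.62 (adjusted p = 0.201) and 2.04 ± 0.62 (adjusted p = 0.0189). tRNA-Arg-CCG-1-1 (chr6:28742952-28743024) had 3821 and 4683 normalised counts in clones #1 and #2, against 1295 in wild type, and passed in both clones at 1.56 ± 0.47 and 1.85 ± 0.47 (adjusted p = 0.00619 and 0.00257) in the authors' deposited table. tRNA-Ser-TGA-1-1 passed in both as well, with 549 and 477 normalised counts, against 178 in wild type, and 1.63 ± 0.43 and 1.43 ± 0.43 in the authors' deposited table. The remaining rises of clone #2 were those of tRNA-Cys-GCA-17-1, tRNA-Ala-CGC-1-1, tRNA-Arg-TCG-3-1 and tRNA-Asp-GTC-3-1, from 1.25 to 1.66 in the authors' deposited table.

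Of 20 arginine isodecoders tested, 4 fell in each clone, and of 18 lysine isodecoders 1 fell in clone #1 and 4 in clone #2, where 5.09% and 5.82% of all rows fell in clones #1 and #2. tRNA-Arg-TCT-4-1 (chr1:159141611-159141684, within AIM2), whose mouse counterpart is enriched in brain, had 229 and 211 normalised counts in clones #1 and #2, against 1595 in wild type. It passed in both clones, falling by 2.80 ± 0.74 in clone #1 and 2.92 ± 0.74 in clone #2 in the authors' deposited table (adjusted p = 0.00163 and 0.00257). tRNA-Arg-CCT-2-1 (chr17:75034431-75034503, in an intron of KCTD2) had 3302 and 3868 normalised counts, against 15440 in wild type. In the authors' deposited table it fell by 2.23 ± 0.67 and 2.00 ± 0.67 (adjusted p = 0.00663 and 0.0366), and the call in clone #2 was lost after centring on the median nuclear isodecoder. tRNA-Arg-TCG-4-1 had 204 and 314 normalised counts, against 1152 in wild type, and fell by 2.50 ± 0.59 and 1.87 ± 0.59 in the authors' deposited table (adjusted p = 0.000401 and 0.0238). tRNA-Lys-CTT-4-1 had 5581 and 5121 normalised counts, against 18021 in wild type. Its fall in the authors' deposited table was 1.69 ± 0.56 in clone #1 and 1.82 ± 0.56 in clone #2 (adjusted p = 0.0148 and 0.019).

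Among the remaining falls, tRNA-Arg-TCT-2-1 and tRNA-Val-CAC-4-1 passed in clone #1 at -1.49 ± 0.53 and -1.55 ± 0.60 in the authors' deposited table. Clone #2 had further falls in tRNA-Lys-TTT-1-1, tRNA-Val-TAC-2-1, tRNA-Gln-CTG-4-1 and tRNA-Arg-TCT-3-2, from -2.67 to -1.92 by the authors' deposited table. tRNA-Glu-TTC-3-1, chosen after its values were seen because its sequence was available, had 91.2 and 86.4 normalised counts in clones #1 and #2, against 244 in wild type. It fell in both clones, by 1.42 ± 0.50 in clone #1 and 1.50 ± 0.49 in clone #2 in the authors' deposited table (adjusted p = 0.0246 and 0.0345). tRNA-Glu-TTC-4-1, which differs by the single base T65C, had 4791 and 3436 normalised counts, against 4386 in wild type, and passed in neither clone (adjusted p = 0.887 and 0.710). Reads that do not span that base cannot separate the pair, and how such reads were assigned was not given in the sources used here.

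A call in one clone and not in the other does not show that the clones differ, so the difference of the clones was tested directly. The wild type drops out of that difference, and only the error of the clones' own libraries remains. Of 69 anticodon rows, spike-ins included, 2 families differed (2.90%), both higher in clone #1. Asn-GTT was 1.83 ± 0.45 higher in clone #1 than in clone #2 on the log2 scale (adjusted p = 0.00332, 95% interval 0.95 to 2.71). mt-Met-CAT, the mitochondrial methionine tRNA that serves both initiation and elongation, was 1.85 ± 0.57 higher (adjusted p = 0.0397), with 31328 normalised counts in clone #1 and 8668 in clone #2, against 12229 in wild type. The differences of SeC-TCA, Leu-CAA and Leu-CAG between the clones did not pass, at 0.74 ± 0.46, 1.17 ± 0.44 and 1.08 ± 0.50 (adjusted p = 0.632, 0.122 and 0.294). Their 95% intervals ran from -0.16 to 1.65, 0.31 to 2.03 and 0.11 to 2.06.

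Among 269 isodecoder rows, spike-ins included, 42 were higher in clone #1 than in clone #2 (15.6%) and 1 was lower (0.372%). The count depends on scaling, since 11 higher and 1 lower were left after centring each clone on its median nuclear isodecoder, and 18 higher and 1 lower with the spike-ins as reference. Of the 42, 24 were called above wild type in clone #1 and 2 below it, 6 were called below wild type in clone #2, and 12 were called in neither. Against wild type, 15.6% of all 275 rows rose in clone #1. Rows picked as higher in clone #1 than in clone #2 tend by that choice to hold more rises of clone #1. With the error of the shared wild type counted in both clones, 0 isodecoders and 0 families passed by the normal test, against 37 isodecoders and 2 families at an unadjusted p under 0.05. The 42 held 7 of 16 nuclear asparagine isodecoders tested, 7 of 15 for leucine, 6 of 18 for lysine and 3 of 5 for phenylalanine. For alanine, 4 of 24, and cysteine, 3 of 22, the share was near the 15.6% of all rows. The 1 lower in clone #1 was tRNA-Asn-GTT-8-1, named after its values were seen, with 4.24 normalised counts in clone #1 and 45.4 in clone #2, against 220 in wild type (difference -3.42 ± 0.99, adjusted p = 0.0108).

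The 8 isodecoders with the lowest p-values in this comparison and a mean of at least 100 were all higher in clone #1. The differences ran from 2.03 to 2.84 on the log2 scale, and each kept its call under both scalings. That mean includes clone #1, so rows with low levels elsewhere, such as tRNA-Lys-CTT-8-1 and tRNA-Tyr-GTA-5-2, reached 100 through it. The shared direction of the 8 is therefore no separate result. tRNA-Lys-CTT-8-1 (chr16:3164938-3165010) had 305 normalised counts in clone #1 and 42.6 in clone #2, against 88.2 in wild type, a difference of 2.84 ± 0.61 (adjusted p = 0.000224). tRNA-Tyr-GTA-5-2 had 305 and 53.1, against 84.5 in wild type, a difference of 2.52 ± 0.53 (adjusted p = 0.000224). For tRNA-Lys-CTT-5-1 the levels were 737.5 and 140 normalised counts, against 276 in wild type, and the difference was 2.40 ± 0.52 (adjusted p = 0.000224). tRNA-Asn-GTT-24-1 differed by 2.45 ± 0.58 and tRNA-Asn-GTT-6-1 by 2.19 ± 0.53 (adjusted p = 0.00113 and 0.00175). In tRNA-Cys-GCA-21-1, tRNA-Lys-TTT-2-1 and tRNA-Ile-AAT-5-3 the differences were 2.37 ± 0.48, 2.33 ± 0.59 and 2.03 ± 0.51 (adjusted p = 0.000166, 0.00229 and 0.00229). For the asparagine, cysteine, isoleucine and Lys-TTT isodecoders of this set, clone #2 stood between -0.07 and 0.24 in the authors' deposited table, and no isodecoder of the set passed in clone #2.

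**Figure D3:**
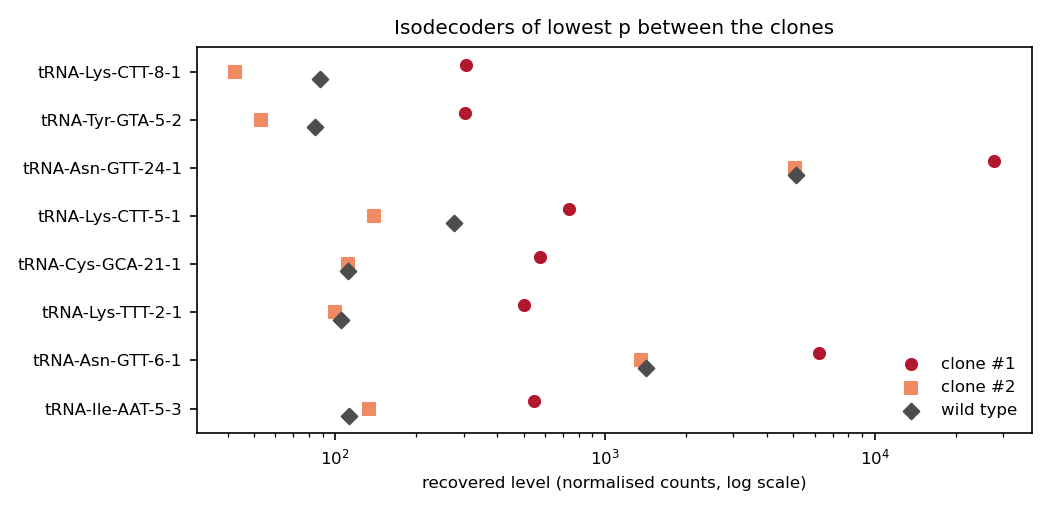
Recovered level in normalised counts (log scale) of the 8 isodecoders with the lowest p-values between the clones, in clone #1 (circles), clone #2 (squares) and wild type (diamonds). Clone #1 is to the right in every row, from 305 for tRNA-Tyr-GTA-5-2 to 27711 for tRNA-Asn-GTT-24-1.

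Mitochondrial DNA encodes 22 tRNAs, cut out of 2 long polycistronic transcripts, 14 from the heavy-strand transcript and 8 from the light-strand one. None of the 22 passed against wild type in either clone. In clone #1 their median log2 fold change was 0.64, against 0.30 over all isodecoder rows tested, and in clone #2 it was 0.08, against -0.13. The 14 heavy-strand tRNAs had a median of 0.64 in clone #1 and -0.10 in clone #2, with 13 and 5 of them above 0. Of all 275 isodecoder rows tested, 164 lay above 0 in clone #1 and 119 in clone #2, so the 5 heavy-strand tRNAs of clone #2 are near that share. For the 8 light-strand tRNAs the medians were 0.64 and 0.54, with 7 above 0 in each clone. The median difference between the clones was 0.66 for the heavy-strand tRNAs and -0.07 for the light-strand tRNAs, and these groups were not tested against each other.

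The highest mitochondrial tRNAs of clone #1 were mt-Met-CAT, mt-Pro-TGG and mt-Glu-TTC, at 1.36 ± 0.57, 1.11 ± 0.48 and 0.89 ± 0.52 in the authors' deposited table. In clone #2 the highest were mt-Gly-TCC, mt-Ala-TGC and mt-Cys-GCA, at 1.42 ± 0.63, 0.83 ± 0.54 and 0.74 ± 0.60 in the authors' deposited table. The lowest of clone #2 were mt-Phe-GAA, mt-Ser-GCT and mt-Met-CAT at -0.97 ± 0.54, -0.73 ± 0.54 and -0.50 ± 0.57, and those of clone #1 were mt-Ser-TGA, mt-Arg-TCG and mt-Phe-GAA between -0.11 and 0.14, all in the authors' deposited table. mt-Ser-GCT, which lacks a D arm, had 3469 normalised counts in clone #1 and 1223 in clone #2, against 2023 in wild type. It was 1.50 ± 0.55 higher in clone #1 than in clone #2 in the isodecoder table (adjusted p = 0.0428), a call lost under both scalings and not made in the anticodon table (adjusted p = 0.122). The call of mt-Met-CAT (chrMT:4402-4469, plus strand) was lost with the spike-ins as reference in both tables and after centring in the isodecoder table.

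**Figure D4:**
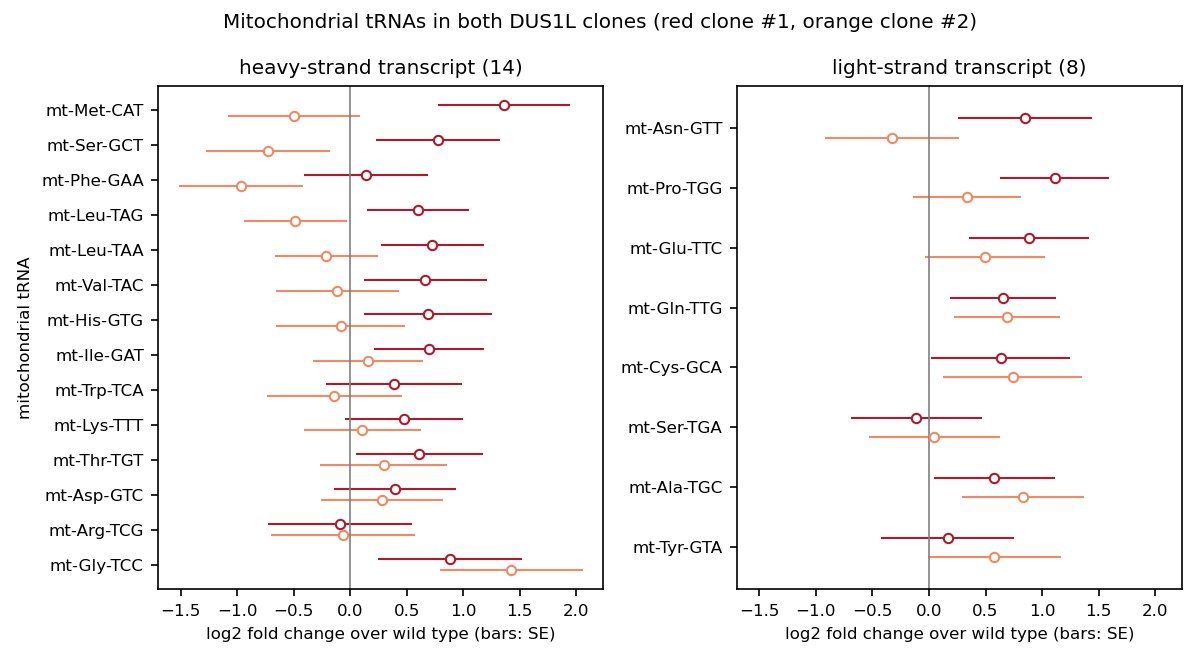
Log2 fold change over wild type of the 22 mitochondrial tRNAs in clone #1 (red) and clone #2 (orange), with SE bars, for the heavy-strand transcript (14, left) and the light-strand transcript (8, right), in order of the difference between the clones. All points are open because none passed; the clones lie apart for mt-Met-CAT, at 1.36 and -0.50, and close for mt-Gln-TTG, at 0.65 and 0.69.

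The make-up of the tRNA pool was taken as each isotype's share of the normalised counts of nuclear and mitochondrial tRNAs, not corrected for tRNA length and without a test. Mitochondrial tRNAs made up 28.2% of the pool in clone #1 and 22.7% in clone #2, against 16.6% in wild type. mt-Glu-TTC (chrMT:14674-14742, minus strand) had the largest mitochondrial share, with 10.3% and 10.0% in the clones, against 5.64% in wild type, and mt-Val-TAC 6.04% and 4.49%, against 3.86%. Nuclear asparagine tRNAs took 4.69% in clone #1 and 1.68% in clone #2, against 1.55% in wild type. Selenocysteine tRNA took 0.430% and 0.327%, against 0.112%. Lysine tRNAs took 4.53% and 3.97%, against 8.21% in wild type, and methionine elongator tRNAs 1.98% and 3.38%, against 5.03%. Arginine tRNAs had 18.6% in clone #1 and 25.8% in clone #2, against 25.8% in wild type.

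The isodecoders with the largest wild-type counts of each amino acid mostly passed in neither clone. Exceptions in clone #1 were tRNA-Asn-GTT-24-1 and tRNA-SeC-TCA-1-1, and in clone #2 there were none. tRNA-Glu-TTC-2-2 had 112219 and 70832 normalised counts in clones #1 and #2, against 108142 in wild type. Its values in the authors' deposited table were 0.05 ± 0.51 and -0.61 ± 0.51. tRNA-Gly-GCC-1-2 had 93759 and 55599 normalised counts, against 94782 in wild type. tRNA-Arg-CCT-4-1 had 26830 and 24906 normalised counts, against 76393 in wild type, and stood at -1.51 ± 0.64 and -1.62 ± 0.64 in the authors' deposited table (adjusted p = 0.0729 and 0.0799). The value in clone #1 passed after centring on the median nuclear isodecoder (adjusted p = 0.0387) and with the spike-ins as reference (adjusted p = 0.0415). tRNA-Met-CAT-6-1, an elongator methionine tRNA whose sequence is shown above, had 11265 and 13854 normalised counts, against 36693 in wild type (adjusted p = 0.113 and 0.270). tRNA-Lys-TTT-3-3 had 15379 and 14069, against 34662 in wild type (adjusted p = 0.178 and 0.173). Those of alanine, isoleucine, leucine and tryptophan carried no p-value.

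**Figure D5:**
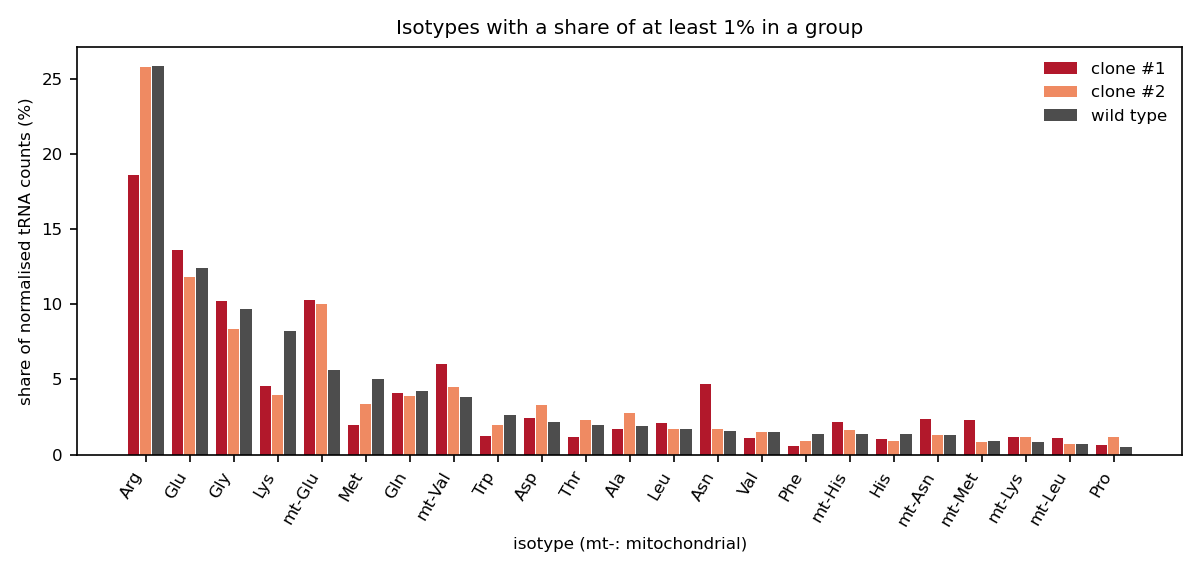
Share of normalised tRNA counts in percent for isotypes that reach 1% in a group, in clone #1 (red), clone #2 (orange) and wild type (grey), with mitochondrial isotypes marked mt-. Lysine stands at 4.53% and 3.97% in the clones, against 8.21% in wild type, and mt-Glu at 10.3% and 10.0%, against 5.64%; bars have no error because no values per library exist.

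By tRNA class, the class II tRNAs, which have a long variable arm and decode leucine, serine and selenocysteine, had 11 isodecoders of 35 tested that rose and 1 that fell in clone #1, while 1 rose and none fell in clone #2. Over all 275 rows tested, 15.6% rose and 5.09% fell in clone #1, and 2.55% rose and 5.82% fell in clone #2, so that the 1 rise of class II in clone #2 is near the share of all rows. Their median log2 fold change was 0.95 in clone #1 and -0.01 in clone #2, against 0.30 and -0.13 over all 275 rows tested. Among the 17 with a mean of at least 100 the medians were 1.63 and 0.86, against 0.29 and -0.02 over all 174 such rows. Here and below, that mean includes the clones' own levels, so the limit is not independent of the values it selects. Leucine isodecoders alone had 8 of 15 higher and 0 lower in clone #1, with a median of 1.68, and none passed in clone #2. Serine did not share this rise. Of 18 serine isodecoders tested, 2 rose in clone #1, a smaller share than the 15.6% of all rows, and 1 fell. The serine medians were 0.23 in clone #1 and -0.23 in clone #2, or 0.48 and -0.05 among the 8 whose mean reached 100. The class II rises of clone #1 were thus mostly those of leucine. These counts and medians leave out rows without a p-value, since 15 of 19 leucine and 35 of 39 class II isodecoders were tested. The untested rows were of Leu-AAG, Leu-TAG and Leu-CAG, and the families Leu-AAG and Leu-TAG lay below wild type in both clones. All nuclear leucine tRNAs took 2.13% and 1.72% of the pool in clones #1 and #2, against 1.73% in wild type. Lysine isodecoders divided, with 6 of 18 higher and 1 lower in clone #1 and 4 lower in clone #2. Their medians were -0.64 in clone #1 and -1.25 in clone #2, but 0.30 and -1.18 among the 12 whose mean reached 100, so that the sign in clone #1 depends on that limit. For arginine 2 of 20 were higher and 4 lower in clone #1, and likewise 2 and 4 in clone #2, with medians of -0.32 and -0.73. The 2 higher ones in clone #1 are a smaller share than the 15.6% of all rows. By the base that starts the anticodon, the medians in clone #1 were 0.54 for A, 0.29 for C, 0.33 for G and 0.05 for T, and in clone #2 they were 0.14, -0.15, -0.27 and -0.24. The median for T in clone #1 was -0.12 among the 43 rows whose mean reached 100.

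The clones of DUS1L and those of DUS2L were set against one set of wild-type libraries, since the wild-type levels recovered from both tables kept a constant ratio, with an SD of 0.0192 on the log2 scale over 181 isodecoders. The wild type therefore drops out when the means of the DUS1L and DUS2L clones are compared, a test added after the data were seen. Its error is that between the libraries of each clone, with no term for differences between clones of a gene. The p-values and counts called therefore speak of these clones and not of the genes knocked out. Of 67 anticodon rows, which include the 3 spike-ins, 37 differed (55.2%), 29 higher and 8 lower in DUS1L clones. E. coli Tyr-GTA was among the 29. Centred on the median nuclear family the counts were 23 and 14, and with the spike-ins as reference 20 and 15. Under both scalings these counts hold E. coli Tyr-GTA as higher and E. coli Phe-GAA as lower. The spike-ins themselves did not stay level in this comparison, with E. coli Tyr-GTA 1.34 ± 0.27 higher in the DUS1L clones (adjusted p = 3.17e-06), and its part in these results was not tested. SeC-TCA was 3.94 ± 0.34 higher in DUS1L than in DUS2L clones on the log2 scale (adjusted p = 6.64e-30), Leu-CAG 3.39 ± 0.35 (adjusted p = 3.09e-21), Leu-CAA 3.27 ± 0.31 (adjusted p = 2.6e-24) and Asn-GTT 2.79 ± 0.30 (adjusted p = 5.44e-19). All 4 kept their calls under both scalings.

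Of isodecoder rows, with spike-ins not left out, 161 of 261 differed between DUS1L and DUS2L clones (61.7%). Of these, 103 were higher and 58 lower in DUS1L clones, or 83 and 68 after centring. tRNA-Asn-GTT-12-1 was 2.34 ± 0.49 lower in DUS1L clones (adjusted p = 5.06e-06), although it was low in both knockouts, the DUS2L clones standing at -4.29 and -4.49 in the authors' deposited table. A further asparagine isodecoder called lower in both DUS1L clones, tRNA-Asn-GTT-10-1, was in contrast 3.41 ± 0.40 higher in DUS1L clones (adjusted p = 2.52e-16). tRNA-Arg-CCT-2-1 did not differ detectably, at -0.17 ± 0.47 with a 95% interval of -1.10 to 0.76, and the DUS2L clones stood at -2.18 and -1.70 in the authors' deposited table. The same held for tRNA-Glu-TTC-3-1, at 0.24 ± 0.35 with an interval of -0.46 to 0.93, where DUS2L clones stood at -2.05 and -1.34 in the authors' deposited table. tRNA-Arg-TCT-4-1 had no test here and stood at -2.87 and -2.19 in the DUS2L clones in the authors' deposited table. Since both knockouts share these wild-type libraries, a low value in both rests on the same wild-type level.

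The DUS3L table has wild-type libraries of its own. The recovered levels of the 2 wild types differed between isodecoders with an SD of 1.51 on the log2 scale over 135 isodecoders with a mean of at least 100 in both tables. Over the same rows the DUS1L fold changes had SDs of 1.07 in clone #1 and 0.87 in clone #2 by the authors' deposited table, so the 2 wild types lay further apart than the clones from their wild type. The gene knocked out and the set of libraries cannot be told apart in this comparison. The DUS1L effect, as the mean of both clones, was set against the DUS3L effect in a test added after the data were seen. Here too the error holds no term for differences between clones. By this test 0 of 69 anticodon rows, spike-ins included, differed (0%), with 5 higher and 6 lower at an unadjusted p under 0.05. SeC-TCA had a difference of 1.48 ± 0.50 and Leu-CAA of 1.33 ± 0.48 (adjusted p = 0.0925 for both), with 95% intervals of 0.51 to 2.45 and 0.39 to 2.27.

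Of isodecoder rows, with spike-ins not left out, 27 of 266 differed between the DUS1L and DUS3L effects (10.2%), 13 higher and 14 lower for DUS1L. tRNA-Asn-GTT-12-1 had the lowest p-value, with a DUS1L effect of -6.73 ± 0.62 and a DUS3L effect of 0.41 ± 0.39 (difference -7.14 ± 0.73, adjusted p = 5.02e-20). tRNA-Asn-GTT-10-1 differed by -2.10 ± 0.70, tRNA-Arg-TCT-4-1 by -2.19 ± 0.75 and tRNA-Glu-TTC-3-1 by -2.59 ± 0.56 (adjusted p = 0.0308, 0.0355 and 0.00015). In the other direction were tRNA-SeC-TCA-1-1, at 1.49 ± 0.50, and tRNA-Leu-CAA-2-1, at 1.78 ± 0.58 (adjusted p = 0.0344 and 0.0279). tRNA-Arg-CCT-2-1 did not pass, at -1.87 ± 0.70 (adjusted p = 0.0659).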

How the data were processed

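Per the labels' protocols, tRNA was cut from gels, mixed with E. coli tRNA and made into small RNA libraries. For the build hg38, the submitters' processing notes list fastp, STAR, featureCounts and DESeq2, with no version or setting. Per the file headers, the authors deposited a signal that is the normalised count averaged over libraries. The authors also deposited each clone's log2 fold change over wild type with its unadjusted p-value. Those p-values came from the authors' DESeq2 fit and were adjusted here, since the tables hold no adjusted p. Treatment of reads that match several tRNAs was not given in the sources used here.

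Computation used Python 3.11.15 with pandas 2.3.3, scipy 1.17.1 and numpy 2.4.6, and plots matplotlib 3.10.9. Dividing a fold change by the normal quantile that its p-value implies gave the SE. Group levels were solved assuming 3 libraries in each of 3 groups. A negative binomial dispersion per row was solved from the SE. The dispersion from clone #1 gave back the SE of clone #2, with a median error of 0.000226 on the log2 scale for families of mean 100 or more. At such means the SE rests almost wholly on the dispersion, which the clones share, so this does not test the recovered levels. The dispersion gave the SE of differences in which the wild type drops out, tested by a two-sided normal p. The recovery was run on simulated tables whose p-values came from the formula it inverts, which checks only the arithmetic. Rows without a p-value (4 families, 11 isodecoders) stayed out of tests, as did 1 family and 6 isodecoders without a dispersion above 0 in clone differences.

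The members and lists were chosen with earlier results of these data known. Named tRNAs were the families past the threshold, the 8 highest and 8 lowest passing isodecoders of each clone and the 8 of lowest p between clones (mean of at least 100), the isodecoder with the largest wild-type counts of each amino acid, the 3 highest and 3 lowest mitochondrial tRNAs, Tyr-GTA, iMet-CAT and the highest and lowest nuclear family. Coordinates are RefSeq's for GRCh38.p14, for 244 of 261 nuclear entries with a gene of the same name, and identical copies elsewhere may share its counts. Overlapping genes are from GENCODE. Alternatives were a threshold of 0.01, a minimum absolute log2 fold change of 1, rows of mean 100 or more, 2 other scalings and the wild-type error kept in the clone difference, besides the mean of both clones and the spike-in scaling of differences, chosen after the data were seen.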

Additional observations from a re-analysis of the deposited data

Results flagged for a closer look

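The clones differed, by a direct test of the difference with the wild type taken out, in both families and in the 8 isodecoders named for it. Clone #1 minus clone #2 was 1.83 for Asn-GTT and 1.85 for mt-Met-CAT at the family level, on the log2 scale. Among isodecoders it was 2.84 for tRNA-Lys-CTT-8-1, 2.52 for tRNA-Tyr-GTA-5-2, 2.45 for tRNA-Asn-GTT-24-1, 2.40 for tRNA-Lys-CTT-5-1, 2.37 for tRNA-Cys-GCA-21-1, 2.33 for tRNA-Lys-TTT-2-1, 2.19 for tRNA-Asn-GTT-6-1 and 2.03 for tRNA-Ile-AAT-5-3. The 3 spike-ins differed by 0.19 on average in the same direction, but not alike. The differences were 0.31 for E. coli Lys-TTT, 0.39 for E. coli Phe-GAA and -0.14 for E. coli Tyr-GTA. With the spike-ins as reference mt-Met-CAT lost its call while the other 9 kept theirs.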

How the results depend on the processing

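No paired analysis was possible because the deposited tables hold no values per library, and leaving out a replicate was not run for the same reason. The families called in clone #1 numbered 4, and those of clone #2 numbered 0, under the threshold of 0.01, the minimum fold change, the minimum mean and both scalings. With the mean of both clones in place of 1 clone, 2 families and 54 isodecoders passed. With an adjusted p threshold of 0.01, the isodecoders called in clone #2 numbered 12, and 1 family and 12 isodecoders differed between the clones. With the wild-type variance kept in both SEs, 0 families and 0 isodecoders differed between the clones, an alternative that by construction counts the shared wild-type error in each clone. Centred on the median nuclear row, 12 isodecoders differed between the clones, and with the spike-ins as reference 19 isodecoders and 1 family. The median of class II isodecoders in clone #2 was 0.86 with a mean of at least 100, a limit that includes the clones' own levels, against -0.01 over all. No call reversed its sign. Of 261 nuclear isodecoders 45 had a mean under 10, and what depth limits could not be set, since the depth per library is unknown.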
